A study of Mus musculus with 16 samples.

Results

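A set of 10 genes that carry, export, take up, store and clear cholesterol and other lipids was followed through cortex and thalamus of mice with a defect in pericyte recruitment. The genes were Apoe, Apod, Clu, Abca1, Abcg1, Lrp1, Vldlr, Soat1, Plin2 and Cyp46a1. They were found by matching the Ensembl identifiers of a table of expected counts (21804 genes, 16 libraries) to gene symbols, and all 10 were in the table. Each is annotated as protein coding, and each passed the filter on low counts in all 5 comparisons.

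The libraries came from brains of 8 C57BL/6 mice aged 4 months. Mutant animals were Pdgfb ret/ret, homozygous for the retention allele, whose product PDGF-B lacks the stretch that keeps the growth factor close to the vessel wall. Control animals were Pdgfb ret/wt, so every group carried at least 1 retention allele and no group was free of it. Each genotype had 4 animals, and each animal gave 1 library from cortex and 1 from thalamus, which made 4 groups of 4 libraries (cortex and thalamus, each in ret/wt and in ret/ret animals). By their labels, thalamus pieces of ret/ret animals were vessel calcifications picked by their autofluorescence, whereas the ret/wt thalamus pieces, which hold no calcifications, were matched by region alone. In the thalamus the genotype and this way of picking tissue therefore cannot be told apart. Region and picking cannot be told apart in ret/ret animals either, which bears on thalamus against cortex there and on the interaction of genotype and region. Cortex pieces of either genotype held no calcifications. In bulk tissue such as this, fewer cells of a type and less RNA per cell cannot be told apart either.

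The brain makes its own cholesterol, because lipoproteins of the blood do not cross the blood-brain barrier. Glia secrete apolipoproteins, the transporters ABCA1 and ABCG1 load them with cholesterol and phospholipid, and receptors of the LDL receptor family take the particles up into neurons and other cells. Surplus cholesterol is either esterified and kept in lipid droplets, or hydroxylated in neurons to an oxysterol that can leave the brain.

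Total expected counts ran from 13415391 to 29135064 per library. Levels are in CPM, counts relative to the library's total after TMM scaling. In these libraries 3 counts, the floor used here, correspond to 0.103 to 0.224 CPM, and the lowest value of any of the 10 genes was 3.80 CPM. The regions carried the markers of their labels: 8 cortex neuron markers summed to 859.6 to 2714 CPM in cortex and 128 to 462 CPM in thalamus, and 8 thalamus neuron markers to 559 to 3227 CPM in thalamus and 157 to 752 CPM in cortex. In none of the 13 marker lists was a gene at 0 in every library of a group. Several libraries stood apart. Cerebellum neuron markers summed to 5015.5 CPM in ret/ret cortex replicate 2 and 2238 CPM in ret/wt cortex replicate 3, against at most 238 CPM in the other cortex libraries, and thalamus neuron markers were highest in the thalamus libraries of the same animals. Choroid plexus markers summed to 1151 CPM in ret/wt cortex replicate 4 and to at most 127 CPM in the other libraries. Libraries also differed by the base composition and length of transcripts. The median log2 level of the 25% of genes richest in GC, less that of the 25% poorest, each relative to the gene's mean over all libraries, was 0.62 in ret/ret thalamus replicate 1 and 0.58 in ret/wt thalamus replicate 4, and between -0.53 and 0.20 in the other libraries. The long genes lay lower than the short ones by a median of -0.56 and -0.99 on the log2 scale in these same thalamus libraries.

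Of the 10 genes, Apod alone differed beyond the threshold, between regions, and none did between genotypes. Between ret/ret and ret/wt thalamus, 0 of the 10 had an adjusted p under 0.05 in the edgeR quasi-likelihood test, adjusted after Benjamini and Hochberg, as did 0% of the 14767 genes tested. DESeq2 and limma-voom also called 0 of the 10 there, and 1 of them (Plin2) had an unadjusted p under 0.05, where 3.93% of all genes did. In cortex, again 0 of the 10 passed with the quasi-likelihood test, DESeq2 and limma-voom, where 0.021% of the 14288 genes tested passed, and 0 had an unadjusted p under 0.05, where 3.77% of all genes did. Between thalamus and cortex 1 of the 10, Apod, passed in ret/ret animals, where 9.5% of 14715 genes did. Apod was also the only one of the 10 to pass in ret/wt animals, where 12.6% of 14442 genes did. A share of 1 in 10 lies near these backgrounds. No member had genotype groups that failed to overlap, in either region, where 2.72% of all genes did in thalamus and 2.44% in cortex. Between regions, the groups did not overlap for Apod alone, in each genotype, against 17.5% of all genes in ret/ret and 20% in ret/wt animals.

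The median log2 fold change of the 10 genes, ret/ret against ret/wt, was 0.0039 in thalamus, beside -0.018 over all genes tested, with 5 genes above 0 and 5 below. In cortex it was 0.027, beside 0.012 over all genes, with 7 above 0 and 3 below. Taken without sign, the median difference of the 10 was 0.18 in thalamus, as it was over all genes, and 0.065 in cortex, beside 0.18 over all genes. For thalamus against cortex the medians without sign were 0.36 in ret/ret and 0.25 in ret/wt animals, beside 0.37 and 0.385 over all genes.

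**Figure D1:**
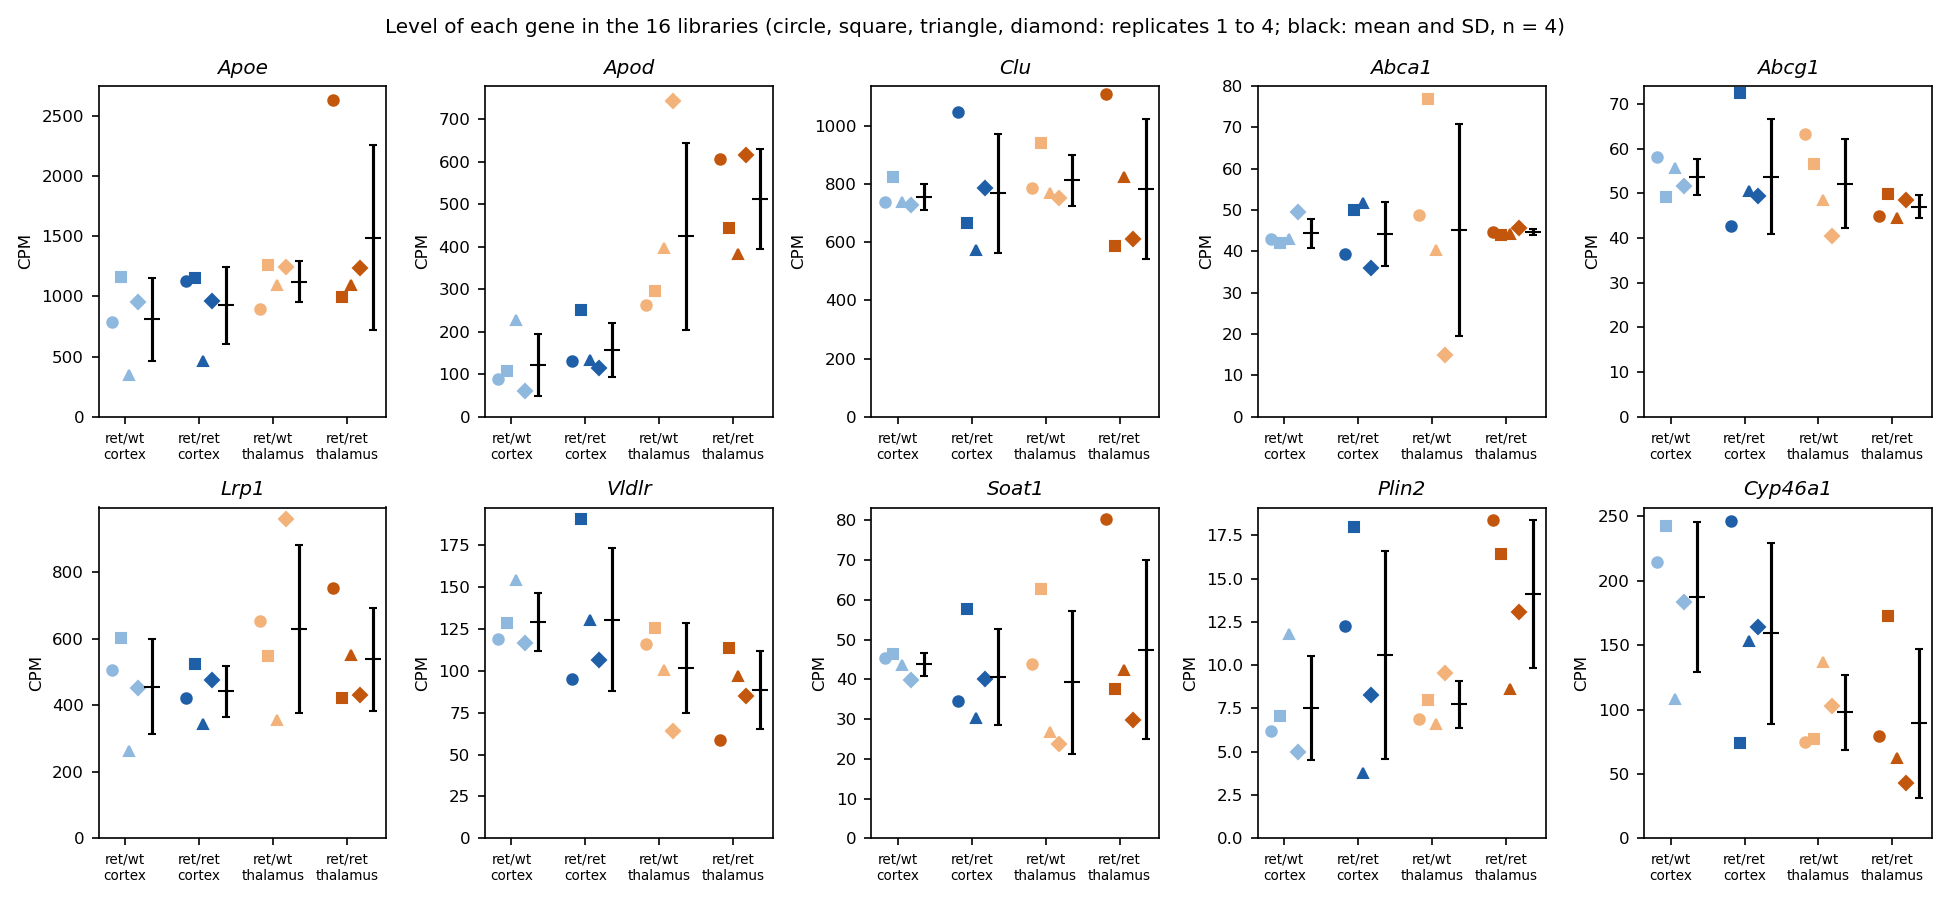
Level of each of the 10 genes in CPM (vertical axis, from 0) in the 16 libraries, by group (horizontal axis); marker shapes give replicates 1 to 4, and the black bar is the mean with the SD (n = 4). Apod lies between 61.3 and 252 CPM in cortex and between 264 and 744 CPM in thalamus, whereas the genotypes overlap in every panel.

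Of the 3 apolipoproteins, Apoe had the highest level of the set and Apod the largest difference between regions. Levels of different genes were set side by side per length, as CPM per kilobase of merged annotated exons. On that scale Apoe was at 379 ± 161 in ret/wt cortex and 695 ± 360 in ret/ret thalamus, and Clu at 220 ± 12.97 and 228 ± 70.5 (SD, n = 4 each). Apod was at 47.2 ± 28.3 in ret/wt cortex and 199 ± 45.5 in ret/ret thalamus, and thus near Cyp46a1 in cortex and above it in thalamus. Cyp46a1 was at 56.9 ± 17.7 in ret/wt cortex, within the SD of Apod, and at 27.2 ± 17.6 in ret/ret thalamus. Next in ret/wt cortex came Lrp1 at 25.7 ± 8.05. Vldlr followed at 12.9 ± 1.72, Abcg1 at 7.35 ± 0.55, Soat1 at 4.47 ± 0.30 and Abca1 at 4.29 ± 0.34, the last pair within an SD of each other. Plin2 was lowest, at 2.14 ± 0.85 CPM per kilobase in ret/wt cortex and 4.02 ± 1.21 in ret/ret thalamus, where it lay within the SD of Abca1 and Soat1. Whether the deposited counts were already scaled by transcript length is not given in the sources used here, and such scaling would alter this order.

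Apoe (chromosome 7, 19696109 to 19699188, minus strand) encodes apolipoprotein E, the main lipid carrier secreted by astrocytes and by activated microglia. Its level in replicates 1 to 4 was 788, 1156, 346 and 951 CPM in ret/wt cortex and 1126, 1149, 464 and 965 CPM in ret/ret cortex. In thalamus it was 896, 1261, 1092 and 1240.5 CPM in ret/wt and 2631, 994, 1090.3 and 1232 CPM in ret/ret animals. The groups overlapped throughout, and 1 ret/ret thalamus library held 2631 CPM while the other 3 lay inside the range of ret/wt thalamus. The log2 fold change of ret/ret against ret/wt was 0.44 ± 0.32 (SE, 95% interval -0.27 to 1.15) in thalamus, with an adjusted p of 1.0 in the edgeR quasi-likelihood test. Without ret/ret thalamus replicate 1 it was -0.0020, and without both thalamus libraries that stand apart in GC and length it was 0.071. In cortex it was 0.21 ± 0.39 (SE, 95% interval -0.66 to 1.07). Thalamus exceeded cortex in 7 of 8 animals, by 0.69 ± 0.38 on the log2 scale in ret/ret and 0.48 ± 0.32 in ret/wt (SE), with adjusted p-values of 0.282 and 0.372 in the same edgeR quasi-likelihood test. Apoe is short and GC-rich, with 59.5% GC in its longest transcript, more than in 94.6% of the genes kept. Its lowest values, in ret/wt and ret/ret cortex replicate 3, came from the libraries in which GC-rich genes were lowest (-0.53 and -0.41), and its highest from the library in which they were highest. Yet ret/wt thalamus replicate 4, with a GC difference of 0.58, held 1240.5 CPM, below replicate 2 of its group (1261 CPM, -0.21). The part of GC in these values was not tested. With an offset for GC and length, the log2 fold change between genotypes in thalamus was 0.21 ± 0.25 (SE).

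Apod (chromosome 16, 31296192 to 31314808, minus strand) encodes apolipoprotein D, a lipocalin that binds arachidonic acid and is made in the brain by oligodendrocytes and other glia. Its level in replicates 1 to 4 was 90.2, 108, 227 and 61.3 CPM in ret/wt cortex and 131, 252, 134 and 115 CPM in ret/ret cortex. The thalamus levels were 264, 296, 397 and 744 CPM in ret/wt and 607, 444, 383 and 616 CPM in ret/ret animals. Every thalamus library lay above every cortex library of either genotype. Apod rose from cortex to thalamus by 1.70 ± 0.29 on the log2 scale in ret/ret animals (SE, 95% interval 1.06 to 2.34, adjusted p = 0.00815 in the edgeR quasi-likelihood test). In ret/wt animals the rise was 1.83 ± 0.45 (SE, 95% interval 0.83 to 2.83, adjusted p = 0.0239 in the same edgeR test). These correspond to 3.25-fold and 3.55-fold higher levels, and thalamus exceeded cortex in 8 of 8 animals, by 0.80 to 3.60 in single ret/wt animals and 0.82 to 2.42 in single ret/ret animals. In ret/wt animals the call was lost without cortex replicate 1, cortex replicate 2 or thalamus replicate 4 (adjusted p = 0.077, 0.0685 and 0.0527 in the edgeR quasi-likelihood test), with log2 fold changes of 1.71, 1.77 and 1.39. Over the alternatives tried the adjusted p ran from 3.51e-07 to 0.0314 in ret/ret and from 0.000286 to 0.077 in ret/wt animals.

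Genotype groups of Apod overlapped in each region. The log2 fold change of ret/ret against ret/wt was 0.29 ± 0.34 in thalamus and 0.40 ± 0.40 in cortex (SE, 95% intervals -0.48 to 1.05 and -0.49 to 1.29). The difference of the regional step between genotypes, -0.11 ± 0.56 (SE), turned to 0.31 without ret/wt thalamus replicate 4, and its adjusted p was 1.0 in the edgeR quasi-likelihood test. Oligodendrocyte markers, like Apod, were higher in thalamus than in cortex. The summed level of 10 such markers was 1849 to 4629.6 CPM in the ret/wt cortex libraries, 2495 to 4594 CPM in ret/ret cortex, 9860.5 to 11813 CPM in ret/wt thalamus and 10944 to 16920 CPM in ret/ret thalamus. Of these 10 markers, 9 passed as higher in thalamus in ret/ret and all 10 in ret/wt animals (the edgeR quasi-likelihood test, adjusted p under 0.05). Within ret/ret cortex the library with the highest marker sum, replicate 4, had the lowest Apod. In ret/wt cortex and in ret/wt thalamus the libraries ranked alike in both. In ret/wt thalamus Apod spread more widely, 264 to 744 CPM against 9860.5 to 11813 CPM for the sum. The part of these markers in the difference of Apod was not tested. The cortex libraries with the highest Apod of their group, ret/ret replicate 2 and ret/wt replicate 3, were those with cerebellum markers, whose part was not tested either.

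The 250 bases before the annotated start are shown for Apod, the gene that passed, for Vldlr, which lay lower in thalamus in all 8 animals, and for Cyp46a1, which passed between regions under some alternatives, so that the windows can be compared. They are from RefSeq on GRCm38.p6 (of the 10 genes, 8 were in that table) and run 5′ to 3′ on the strand of the gene. Capitals mark the motifs GGGCGG and CCAAT, which are ATTGG and CCGCCC where they lie on the opposite strand.
Apod promoter, chr16:31314809-31315058, minus strand: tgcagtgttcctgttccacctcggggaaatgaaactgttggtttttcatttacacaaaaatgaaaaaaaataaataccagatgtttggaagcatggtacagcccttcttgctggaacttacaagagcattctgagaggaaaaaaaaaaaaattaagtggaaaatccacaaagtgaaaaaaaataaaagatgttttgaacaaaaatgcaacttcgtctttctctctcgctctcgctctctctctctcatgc
Vldlr promoter, chr19:27216234-27216483, plus strand: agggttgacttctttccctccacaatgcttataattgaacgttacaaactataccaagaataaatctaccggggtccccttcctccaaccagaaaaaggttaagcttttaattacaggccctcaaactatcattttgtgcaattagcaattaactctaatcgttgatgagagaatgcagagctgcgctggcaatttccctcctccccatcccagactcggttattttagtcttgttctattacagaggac
Cyp46a1 promoter, chr12:108334066-108334315, plus strand: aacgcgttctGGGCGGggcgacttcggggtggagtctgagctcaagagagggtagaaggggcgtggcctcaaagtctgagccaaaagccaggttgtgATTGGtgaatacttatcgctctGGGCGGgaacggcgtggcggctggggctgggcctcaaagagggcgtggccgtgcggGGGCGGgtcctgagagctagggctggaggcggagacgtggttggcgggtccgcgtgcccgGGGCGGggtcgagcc
The Apod window held 36.4% GC and the Vldlr window 41.6%, beside a median of 52.4% over 32851 windows of the same length, whereas the Cyp46a1 window held 67.6%. Neither GGGCGG nor CCAAT was found on either strand of the Apod and Vldlr windows, and the Cyp46a1 window held 4 GGGCGG and 1 CCAAT. Among all windows 32.7% held GGGCGG and 33.8% held CCAAT. The TATA motif TATAAA, in 12.4% of all windows, was in none of these 3 windows. An exact spaced AGGTCA repeat (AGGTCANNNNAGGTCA), 1 form of the sites bound by liver X receptors, was in no window of the 8 genes. It was in only 5 of all 32851 windows (0.0152%), so its absence was likely for any gene. Repeats that differ from these letters were not searched. The absence therefore cannot show whether these windows hold a site for the receptors. The Cyp46a1 window ends 65 bases before the gene start of the GENCODE annotation used for the coordinates, and Vldlr has a further RefSeq start 536 bases downstream, whose window held 1 GGGCGG and 1 CCAAT. These matches are a description of the letters only.

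Clu (chromosome 14, 65968483 to 65981547, plus strand) encodes clusterin, or apolipoprotein J, a secreted chaperone and lipid carrier made chiefly by astrocytes. It was at 738, 824, 738 and 728 CPM in ret/wt cortex and 1048, 668, 574 and 786 CPM in ret/ret cortex. The thalamus values were 786, 942, 769.5 and 753 CPM in ret/wt and 1109, 586, 826 and 612 CPM in ret/ret animals. The spread was wider in ret/ret than in ret/wt libraries (SD 205 against 44.6 CPM in cortex and 242 against 87.1 CPM in thalamus), and the ret/wt values lay inside the ret/ret range in both regions. The fitted differences of 2 groups ran from -0.018 ± 0.23 between genotypes in thalamus to 0.11 ± 0.17 between regions in ret/wt animals, and the interaction was -0.076 ± 0.30 (log2, SE). Summed astrocyte markers were at 5574 to 7771 CPM in cortex and 2784 to 4921 CPM in thalamus, while the group means of Clu were 757 to 813 CPM. Although the sum was lower in thalamus, the median log2 fold change of the 10 markers, thalamus against cortex, was above 0. It was 0.24 in ret/ret and 0.44 in ret/wt animals. Of the 10 astrocyte markers 2 passed as lower in thalamus of ret/ret animals, and 1 as lower and 1 as higher in ret/wt animals, and their part in the values of Apoe and Clu was not tested.

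**Figure D2:**
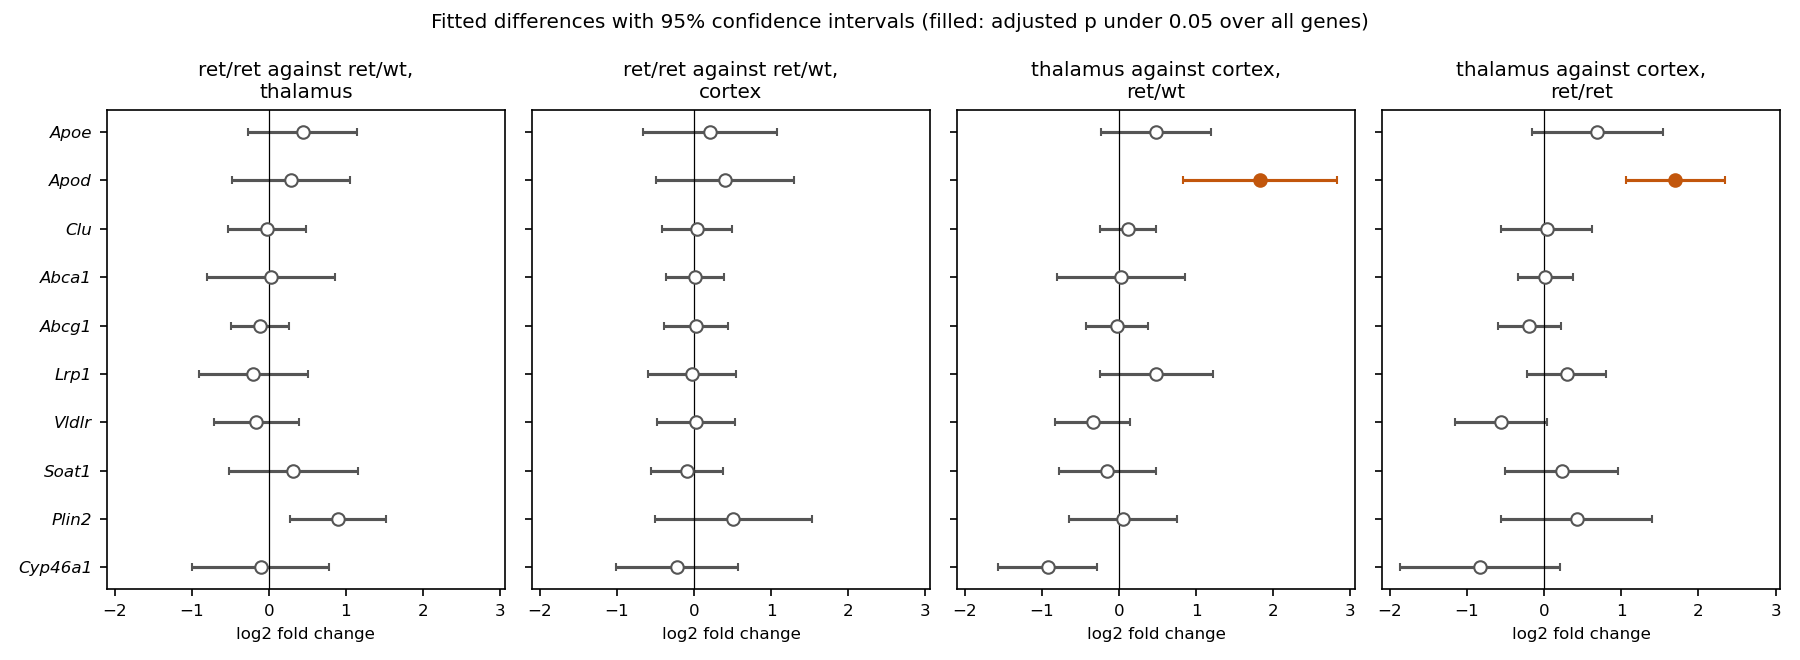
Fitted log2 fold changes (horizontal axis) of the 10 genes in 4 comparisons, with 95% confidence intervals, for ret/ret against ret/wt within each region and thalamus against cortex within each genotype. Filled symbols mark an adjusted p under 0.05 over all genes, reached by Apod alone, in both comparisons of regions.

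The exporters Abca1 and Abcg1, which are induced by sterol-sensing nuclear receptors in most cells, had like means in all 4 groups. Abca1 (chromosome 4, 53030787 to 53159895, minus strand) loads cholesterol and phospholipid onto lipid-poor apolipoproteins. It was at 42.9, 42.1, 43.1 and 49.6 CPM in ret/wt cortex, 39.4, 50.1, 51.6 and 35.9 CPM in ret/ret cortex, and 44.6, 43.9, 44.3 and 45.8 CPM in ret/ret thalamus. In ret/wt thalamus it was at 48.7, 76.9, 40.4 and 14.9 CPM, so the ret/wt thalamus values reached below and above those of the other 3 groups. The genotype difference in thalamus was 0.026 ± 0.37 on the log2 scale (SE, 95% interval -0.80 to 0.85) and ran from -0.26 to 0.40 when single libraries were left out. The lowest value came from ret/wt thalamus replicate 4, the library in which long genes were lowest, and Abca1 has a longer transcript than 97.6% of the genes kept. In the same library Lrp1, longer than 99.5% of the genes kept, was at its highest, 960 CPM. Lrp1 is also richer in GC than Abca1 (57.9% against 47.5%), and GC-rich genes were high in that library (0.58). Its value therefore does not separate length from GC. Abca1 was at 44.6 CPM in ret/ret thalamus replicate 1, where long genes were also low. The part of transcript length or of GC in these values was not tested. Group means of Abca1 were 44.3 to 45.2 CPM in all 4 groups. In cortex the genotype difference was 0.012 ± 0.17 (SE, 95% interval -0.36 to 0.38).

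Abcg1 (chromosome 17, 31057675 to 31117988, plus strand) passes sterol on to particles that already carry lipid. It was at 58.2, 49.1, 55.6 and 51.7 CPM in ret/wt cortex and 42.8, 72.4, 50.5 and 49.4 CPM in ret/ret cortex. In thalamus it was at 63.3, 56.6, 48.5 and 40.4 CPM in ret/wt and 45.0, 49.9, 44.6 and 48.5 CPM in ret/ret animals. All 4 groups overlapped. The 95% interval of the genotype difference was -0.49 to 0.26 in thalamus and -0.39 to 0.44 in cortex on the log2 scale. Between regions the interval was of like width, -0.60 to 0.21 in ret/ret and -0.43 to 0.37 in ret/wt animals.

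Among the receptors, the fitted differences between regions had opposite signs for Lrp1 and Vldlr, and neither gene passed the test. Lrp1 (chromosome 10, 127538161 to 127621148, minus strand) is a large endocytic receptor that takes up particles with apolipoprotein E. Its level was 507, 603, 264 and 451 CPM in ret/wt cortex and 422, 525, 344 and 476 CPM in ret/ret cortex. The thalamus levels were 654, 549, 357 and 960 CPM in ret/wt and 754, 421, 551 and 431 CPM in ret/ret animals. Thalamus exceeded cortex in 5 of 8 animals, by 0.48 ± 0.33 in ret/wt and 0.29 ± 0.23 in ret/ret animals on the log2 scale (SE), with adjusted p-values of 0.385 and 0.445 in the edgeR quasi-likelihood test. Without ret/wt thalamus replicate 4, which had the highest level, the ret/wt value was 0.19. The genotype difference was -0.20 ± 0.32 in thalamus, where it turned to 0.11 without that library, and -0.029 ± 0.26 in cortex (SE).

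Vldlr (chromosome 19, 27216484 to 27254231, plus strand) binds lipoproteins with apolipoprotein E and is a receptor of the guidance protein reelin. It was at 119, 128, 154 and 116 CPM in ret/wt cortex and 94.8, 191, 130.4 and 106 CPM in ret/ret cortex. In thalamus it was at 116, 126, 100.45 and 64.1 CPM in ret/wt and 58.7, 114, 96.7 and 85.2 CPM in ret/ret animals. The groups overlapped, yet within each of the 8 animals the thalamus library lay below the cortex library, by -0.031 to -0.86 in ret/wt and -0.32 to -0.75 in ret/ret animals (log2). The fitted difference was -0.56 ± 0.27 in ret/ret and -0.34 ± 0.22 in ret/wt animals (SE), with adjusted p-values of 0.214 and 0.351 in the edgeR quasi-likelihood test. With a replicate block for the animal the ret/ret value was -0.54 ± 0.14 and its adjusted p 0.0667 in the same edgeR test, still above the threshold. Vldlr is long and poor in GC, and with an offset for both the differences were -0.31 ± 0.23 and -0.15 ± 0.13 (SE). Between genotypes Vldlr differed by -0.16 ± 0.25 in thalamus and 0.032 ± 0.23 in cortex (SE).

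Storage of cholesterol was followed through Soat1 and Plin2. Soat1 (chromosome 1, 156424525 to 156474331, minus strand) encodes the acyltransferase that turns free cholesterol into cholesteryl ester. It was at 45.4, 46.4, 43.6 and 39.8 CPM in ret/wt cortex and 34.6, 57.8, 30.2 and 39.985 CPM in ret/ret cortex. Thalamus samples held it at 43.8, 62.6, 26.7 and 23.8 CPM in ret/wt and 80.3, 37.5, 42.3 and 29.8 CPM in ret/ret animals. Both thalamus groups had a wide spread and overlapped. The genotype difference in thalamus, 0.32 ± 0.37 (log2, SE, 95% interval -0.51 to 1.15), turned to -0.073 without ret/ret thalamus replicate 1, the library that was also highest in Apoe. In cortex it was -0.089 ± 0.21 (SE, 95% interval -0.56 to 0.38).

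Plin2 (chromosome 4, 86648386 to 86670060, minus strand) encodes perilipin 2, which coats lipid droplets and is widely used as their marker. In thalamus it was at 6.87, 7.99, 6.58 and 9.56 CPM in ret/wt and 18.4, 16.4, 8.63 and 13.1 CPM in ret/ret animals. In cortex it was at 6.20, 7.09, 11.8 and 4.995 CPM in ret/wt and 12.3, 18.0, 3.80 and 8.27 CPM in ret/ret animals. In thalamus 3 of the 4 ret/ret libraries lay above every ret/wt library, and replicate 3 lay among them. The genotype difference there was 0.90 ± 0.28 on the log2 scale (SE, 95% interval 0.27 to 1.52), a 1.86-fold higher mean level, with an unadjusted p of 0.00974 and an adjusted p of 1.0 in the edgeR quasi-likelihood test. The difference did not pass over all genes. Its sign was the same in every alternative tried, from 0.73 without ret/ret thalamus replicate 1 to 1.08 without replicate 3, and its adjusted p ran from 0.338 to 1.0. In cortex the difference was 0.51 ± 0.45 (SE, 95% interval -0.51 to 1.53), and 0.12 without ret/ret cortex replicate 2. Its interaction term was 0.38 ± 0.55 (log2, SE, adjusted p = 1.0 in the edgeR quasi-likelihood test), so a larger difference in thalamus than in cortex was not shown. The summed level of 10 microglia markers was 317 to 376 CPM in ret/wt thalamus and 465 to 634 CPM in ret/ret thalamus, with 0 of 10 markers called between genotypes and a median log2 fold change of 0.58. For 10 endothelial markers the median between genotypes was 0.56 in thalamus and 0.68 in cortex, with 0 called, beside 0.11 for the microglia markers in cortex. The part of either list in the Plin2 values was not tested.

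Cyp46a1 (chromosome 12, 108334381 to 108362234, plus strand) encodes the hydroxylase by which neurons turn cholesterol into an oxysterol that crosses the blood-brain barrier. It was at 215, 243, 108 and 183 CPM in ret/wt cortex and 246, 73.9, 153 and 164 CPM in ret/ret cortex. Thalamus samples held it at 74.5, 76.9, 137 and 103 CPM in ret/wt and 79.4, 173, 62.1 and 42.7 CPM in ret/ret animals. Thalamus lay below cortex in 6 of 8 animals, and above it in ret/wt replicate 3 and ret/ret replicate 2, the animals whose cortex libraries carried cerebellum markers. The fitted difference between regions was -0.92 ± 0.29 in ret/wt (SE, 95% interval -1.56 to -0.28) and -0.83 ± 0.46 in ret/ret animals (SE, 95% interval -1.87 to 0.20). The adjusted p-values in the edgeR quasi-likelihood test were 0.0642 and 0.284, so Cyp46a1 did not pass in either genotype. Without those animals the differences were -1.32 and -1.59 and passed (adjusted p = 0.0122 and 0.00887 in the same edgeR test). In ret/wt animals leaving out cortex replicate 3 or thalamus replicate 3 alone was enough (adjusted p = 0.0226 and 0.0401 in the edgeR quasi-likelihood test). There it also passed in DESeq2 (adjusted p = 0.0185) and with an offset for GC and length (adjusted p = 0.0357 in the edgeR quasi-likelihood test). The summed level of 10 neuron markers was 6934 to 11364 CPM in cortex and 5179 to 8776 CPM in thalamus, and 2 of these markers passed as lower and 2 as higher in thalamus of ret/wt animals. Their part in the Cyp46a1 values was not tested. Between genotypes Cyp46a1 differed by -0.11 ± 0.40 in thalamus and -0.22 ± 0.36 in cortex (SE), with overlapping groups.

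**Figure D3:**
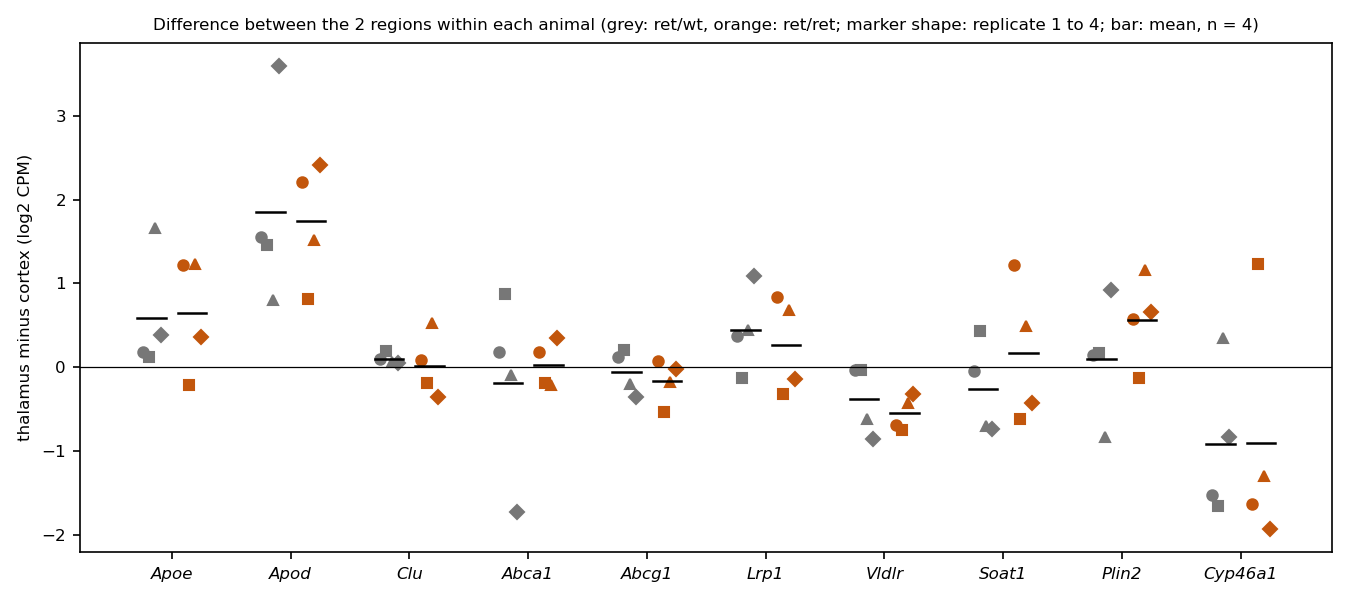
Thalamus minus cortex difference in log2 CPM (vertical axis) of each of the 10 genes (horizontal axis) within each of the 8 animals, with the mean of each genotype as a bar (n = 4). Apod lies above 0 and Vldlr below 0 in 8 of 8 animals, and Cyp46a1 lies below 0 in 6 of 8.

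**Figure D4:**
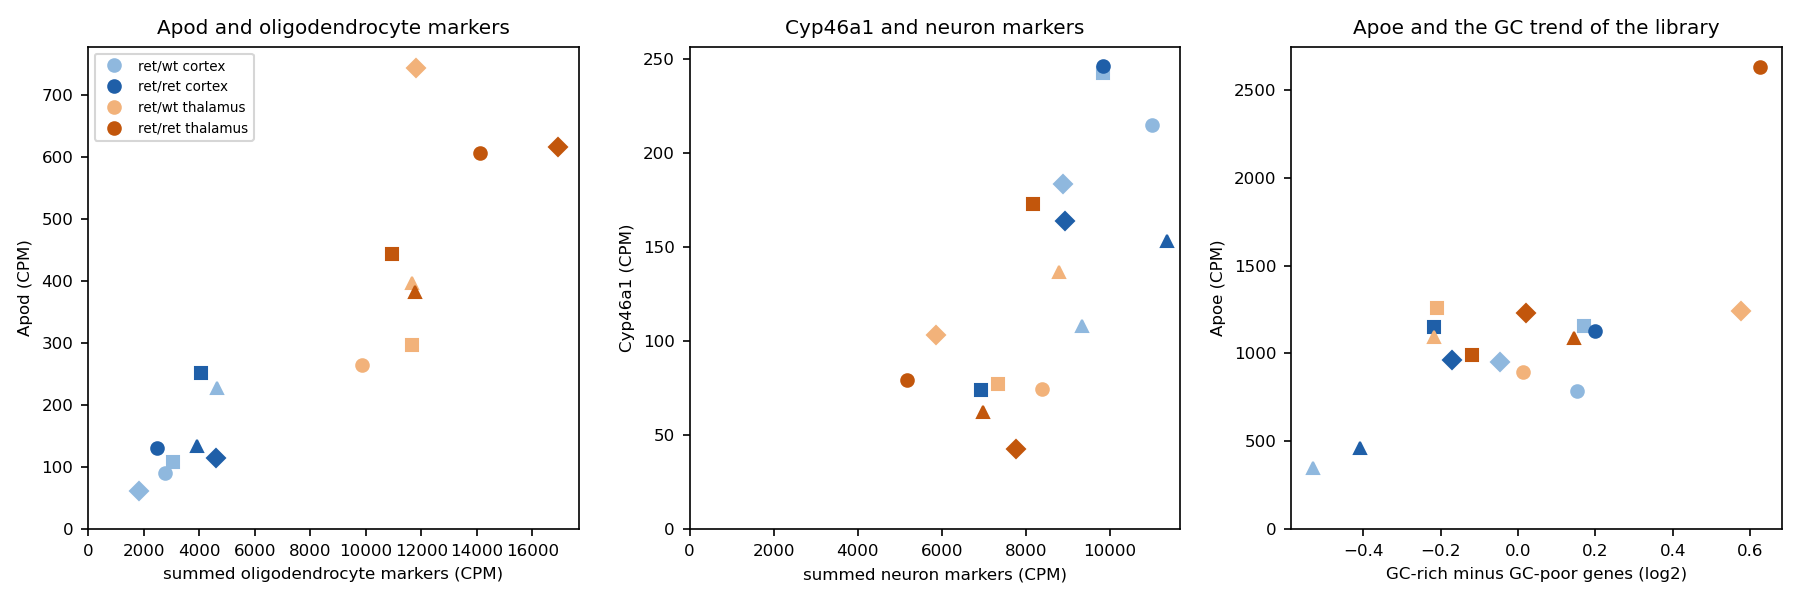
Levels in CPM (vertical axes, from 0) of Apod against summed oligodendrocyte markers, of Cyp46a1 against summed neuron markers (both in CPM), and of Apoe against the difference between GC-rich and GC-poor genes in log2, for the 16 libraries (marker shapes give replicates 1 to 4). The thalamus libraries are apart from cortex in Apod and in oligodendrocyte markers alike, and the library with the highest Apoe, 2631 CPM, has the highest GC difference, 0.62. The library next in GC difference, ret/wt thalamus replicate 4 at 0.58, holds 1240.5 CPM of Apoe.

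The pathway around the 10 genes was followed through 8 lists (apolipoproteins, lipases and lipoprotein remodelling, ABC exporters, receptors and their partners, cholesterol esters and lipid droplets, oxysterols, intracellular sterol transport, and sterol-sensing regulators), which held 112 further genes of the table. Between genotypes 0 of 90 further genes tested passed in thalamus and 0 of 88 in cortex (the edgeR quasi-likelihood test). An unadjusted p under 0.05 was reached by 3 and 6, where 3.93% and 3.77% of all genes did. In thalamus these were Lpl (log2 fold change 1.67), Plin4 (-1.49) and Srebf1 (0.67). Those in cortex included Lcat (1.31), Plin3 (0.57), Lpl (-1.20), Plin4 (-1.05) and Scap (-0.36). DESeq2 called 1 of the 90 in thalamus, Lpl, and 0 of the 88 in cortex, where it called 37 of 14767 and 38 of 14288 genes. Between regions, 3 of 94 passed as higher and 8 as lower in thalamus of ret/ret animals, where 4.1% and 5.4% of all genes did. In ret/wt animals 7 of 91 passed as higher and 12 as lower, where 5.44% and 7.12% of all genes did. With a replicate block for the animal 2 passed as higher and 5 as lower in ret/ret animals, and 4 and 8 in ret/wt animals. Over all genes the block gave 501 and 676 of 14715 in ret/ret, and 619 and 868 of 14442 in ret/wt animals. Scaled by library size alone, which shifts the median of all genes in ret/wt animals from 0.028 to 0.13, the ret/wt counts were 9 higher and 7 lower, and over all genes 977 and 844 in place of 785 and 1028. The median log2 fold change over the lists was 0.14 in ret/ret and 0.17 in ret/wt animals, beside -0.018 and 0.028 over all genes.

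Every call among the lipoprotein receptors and their partners was lower in thalamus. Of 20 tested in ret/ret animals 4 fell, among them Lrp8, Dab1 and Sorl1, and 0 rose. Of 19 tested in ret/wt animals 4 fell and 0 rose. Over all 14715 and 14442 genes tested, 5.4% and 7.12% fell, and 4.1% and 5.44% rose. The replicate block left 2 lower in ret/ret and 3 in ret/wt animals, library size alone 4 and 2, and DESeq2 7 and 5. Over all genes, those lower were 676 and 868 with the block, 718 and 844 by library size alone, and 1401 and 1410 in DESeq2. Among the receptors 1 was higher in ret/ret animals in DESeq2 and 1 in ret/wt animals with the GC and length offset. Over all genes, 1190 and 1051 were higher there. Lrp8 forms with Vldlr the pair of reelin receptors. In ret/ret animals Lrp8 was at 83.2 to 99.4 CPM in cortex and 41.0 to 52.9 CPM in thalamus. It thus showed no overlap, as did 17.5% of all genes. Its log2 fold change was -0.92 ± 0.14 in ret/ret (SE, adjusted p = 0.00577 in the edgeR quasi-likelihood test) and -0.83 ± 0.25 in ret/wt animals (adjusted p = 0.0571). Dab1, the adaptor that binds the inner tails of both receptors, fell by 1.83 on the log2 scale in ret/ret and by 1.51 in ret/wt animals (adjusted p = 0.00668 and 0.0104 in the same edgeR test). Vldlr lay on the same side at -0.56 and -0.34 but did not pass. Sorl1, a sorting receptor that handles the amyloid precursor protein, fell by 1.23 in ret/ret and 1.02 in ret/wt animals (adjusted p = 0.0285 and 0.0373 in the edgeR quasi-likelihood test). Sort1, a related sorting receptor, was at 632 to 858 CPM in ret/wt cortex and 251 to 489 CPM in ret/wt thalamus. Cortex neuron markers were lower in thalamus in 6 of 8 genes in each genotype, and their part in these differences was not tested.

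Among lipases, Lpl, which releases fatty acids from lipoproteins, and Lipg, which acts on their phospholipids, were lower in thalamus. Both passed in ret/wt animals, and Lipg but not Lpl in ret/ret animals. Lpl was at 19.1 to 47.3 CPM in ret/wt cortex and 2.33 to 3.81 CPM in ret/wt thalamus. It fell by 3.42 on the log2 scale (adjusted p = 0.000264 in the edgeR quasi-likelihood test). In ret/ret animals Lpl was at 4.62 to 21.9 CPM in cortex and 8.29 to 10.6 CPM in thalamus, so these groups overlapped, with a log2 fold change of -0.56 ± 0.39 (SE, adjusted p = 0.394 in the same edgeR test). Between genotypes the Lpl levels in thalamus did not overlap, as was the case for 2.72% of all genes. The log2 fold change was 1.67 ± 0.28 (SE) and did not pass (adjusted p = 0.335 in the edgeR quasi-likelihood test). DESeq2 gave an adjusted p of 5.4e-06, in a comparison where it called 37 genes of the whole table and the edgeR test 0. The interaction of genotype and region for Lpl did not pass over all genes (2.86 ± 0.53, SE, adjusted p = 0.859 in the edgeR quasi-likelihood test), and DESeq2 gave an adjusted p of 0.0012. Lipg was at 4.24 to 9.81 CPM in ret/wt cortex and 0.0598 to 0.666 CPM in ret/wt thalamus, where the lowest libraries lie under the floor of 3 counts.

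The lists of sterol transport, of esters and droplets, and of regulators held calls in both directions. In ret/ret animals 2 of 17 transport genes, 0 of 16 ester and droplet genes and 1 of 15 regulators passed as higher, and 0, 0 and 1 as lower. In ret/wt animals 1, 2 and 1 passed as higher and 1, 1 and 2 as lower, among the latter the regulator Pparg. Over all genes 4.1% passed as higher and 5.4% as lower in ret/ret animals, and 5.44% and 7.12% in ret/wt animals. With 15 to 17 genes in a list, these counts cannot be told from those shares. Npc2, the lysosomal cholesterol carrier, rose by 0.91 ± 0.23 in ret/ret and 1.04 ± 0.27 in ret/wt animals (log2, SE, adjusted p = 0.0372 and 0.0304 in the edgeR quasi-likelihood test). Srebf1, a transcription factor of lipid synthesis, rose by 1.15 ± 0.28 in ret/ret animals (SE, adjusted p = 0.0327 in the same edgeR test) and stood at 0.58 ± 0.21 in ret/wt animals (adjusted p = 0.108). Osbpl5, an oxysterol-binding protein, rose by 1.60 ± 0.38 in ret/ret animals (SE, adjusted p = 0.0302 in the edgeR quasi-likelihood test), from 15.5 to 24.4 CPM in cortex to 31.3 to 93.0 CPM in thalamus. With the replicate block, which pairs the regions of an animal, the ret/ret calls of Srebf1, Osbpl5 and Sorl1 were lost (adjusted p = 0.0617, 0.0521 and 0.0726 in the edgeR quasi-likelihood test). In ret/wt animals the lysosomal lipase Lipa and the droplet protein Plin3 passed as higher, at 33.9 to 40.5 against 20.4 to 27.7 CPM and 15.5 to 26.0 against 9.39 to 12.8 CPM. The replicate block lost both calls (adjusted p = 0.0611 and 0.0582 in the edgeR quasi-likelihood test). Cyp27a1, which hydroxylates cholesterol outside neurons, rose by 1.72 ± 0.36 in ret/wt animals (SE, adjusted p = 0.0108 in the edgeR quasi-likelihood test), opposite in sign to Cyp46a1. Apoc1, of the gene cluster that holds Apoe, rose by 2.52 ± 0.57 in the same animals (SE, adjusted p = 0.0169 in the edgeR quasi-likelihood test) at low levels, 0.235 to 0.396 CPM in cortex and 1.05 to 4.13 CPM in thalamus.

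**Figure D5:**
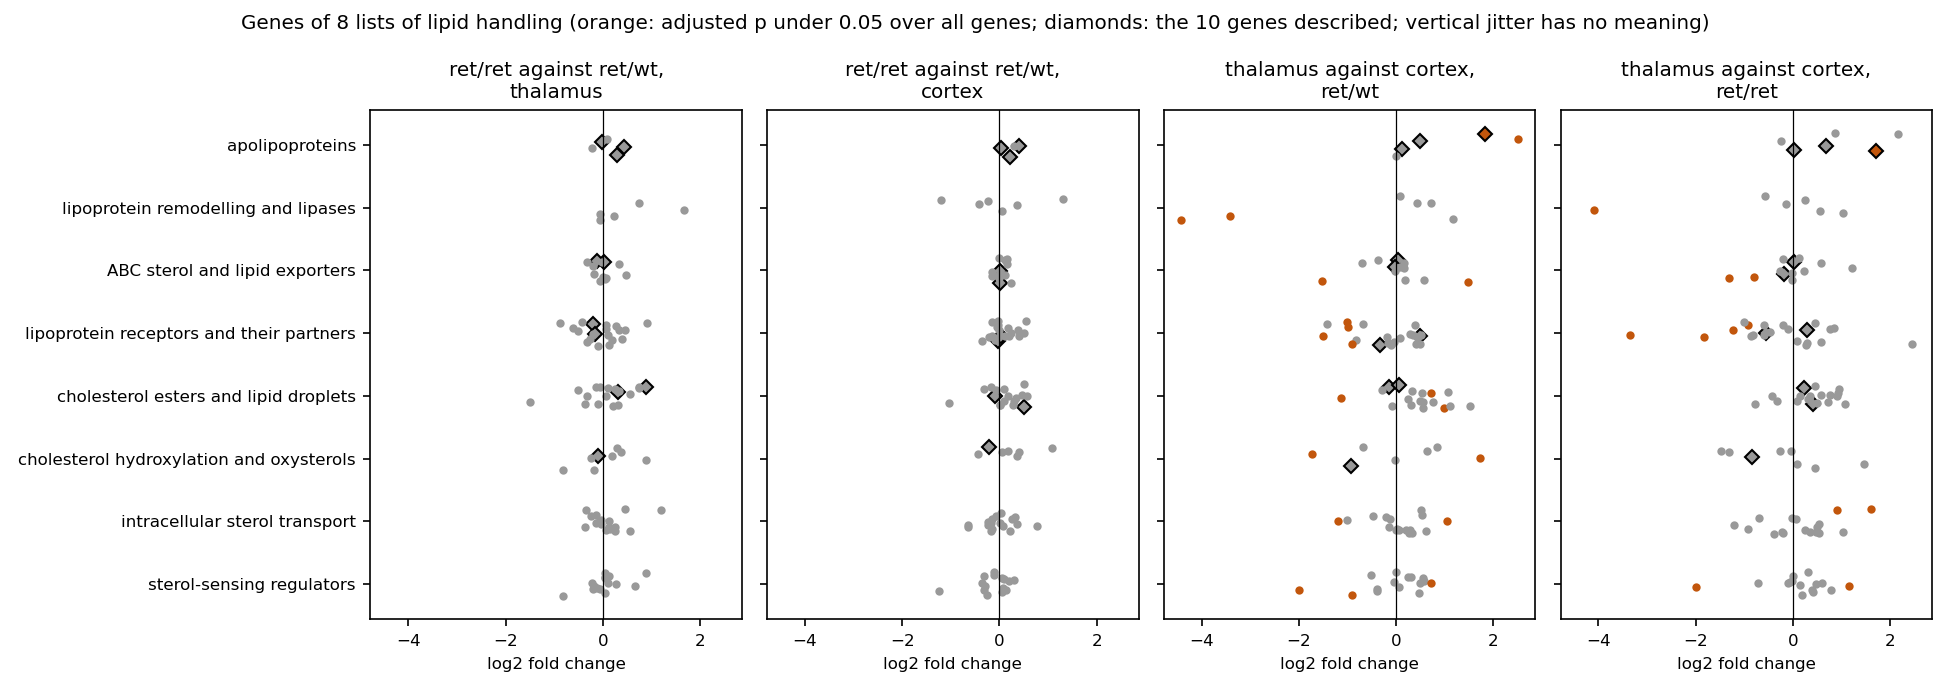
Log2 fold changes (horizontal axis) of the tested genes of 8 lists of lipid handling (vertical axis) in 4 comparisons; each point is a gene, diamonds are the 10 genes described, and orange marks an adjusted p under 0.05 over all genes. No point is orange between genotypes, 12 are orange between regions in ret/ret and 20 in ret/wt animals, Apod included.

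The genes most like each of the 10 were found by Pearson's r of log2 CPM over the 16 libraries among 12816 genes, as a description only, since libraries of a region, an animal and a level of GC bias share those features. Apod was most like Gng11, Cnp and Evi2a (r = 0.96 for each), of which Cnp is an oligodendrocyte marker of the lists above. Vldlr was most like Jmy, Spty2d1 and Rictor (r = 0.96, 0.95 and 0.94). Cyp46a1 was most like Stk32c (r = 0.96), whose values recur under another identifier of the table, and Sprn (r = 0.96). Apoe was most like Rpl36, Rnaseh2c and Exosc5 (r = 0.92, 0.91 and 0.89). Rpl36 and Rnaseh2c share with Apoe a short transcript rich in GC (60.8% and 58.1%), whereas the longest transcript of Exosc5 has 5068 bases and 53.8% GC. Lrp1 was most like Zfp428, Isyna1 and Lrrc24 (r = 0.92, 0.90 and 0.90), whose transcripts hold 64.4%, 60.7% and 61.0% GC, beside 57.9% for Lrp1. With group means subtracted, 3 of the 10 genes (Abcg1, Plin2 and Cyp46a1) kept at least 2 of their 3 most like genes, and Apod, Clu and Vldlr kept 0. For Abcg1 the 2 kept were 0610030E20Rik and another identifier with the same r (0.87654, and 0.92669 with group means subtracted). Abcg1 thus counts here through values that appear to recur under another identifier. The highest r was lower for Clu (Aqp9, 0.80) and Soat1 (Mtss1l, 0.82) than for the other 8 genes. Plin2 was most like Dera (r = 0.90), Abca1 most like Rad54l2 (r = 0.92) and Abcg1 most like 0610030E20Rik (r = 0.88).

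No regional step of the 10 genes was shown to differ between genotypes. The interaction of genotype and region had an adjusted p of 1.0 for each of the 10 in the edgeR quasi-likelihood test, where 0% of 15286 genes passed and 1.6% had an unadjusted p under 0.05. None of the 10 had an unadjusted p under 0.05 either, and DESeq2 and limma-voom called 0 of them. The largest values were 0.38 ± 0.46 for Soat1 and 0.38 ± 0.55 for Plin2, and the lowest was -0.21 ± 0.36 for Vldlr (log2, SE).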

How the data were processed

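RNA was measured by stranded sequencing of polyA-selected RNA in 16 libraries from 8 mice. The authors deposited expected counts, estimated reads per Ensembl gene, made with kallisto 0.44.0 on GRCm38.p6 per the submitters' processing notes; the step from transcripts to genes and any length scaling are not given in the sources used here, and 3.49% of nonzero values lay within 0.01 of a whole number. Totals were 13415391 to 29135064 per library. Symbols and coordinates came from GENCODE M21 (GRCm38), which matched 21581 of 21804 identifiers (99.0%).

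Counts were rounded and fitted with edgeR 4.0.16 in R 4.3.3: filterByExpr (minimum count 10, minimum total 15), TMM factors and the quasi-likelihood test with Benjamini-Hochberg adjustment at 0.05 over all genes tested. Every pair of groups compared was fitted with its own 8 libraries alone, without a block, and the interaction on all 16. CPM of single libraries used TMM factors over all 16 libraries. Pipeline steps were tested on simulated data. Plots and tables used Python 3.11.15, pandas 2.3.3 and matplotlib 3.10.9.

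Groups, and the animals that pair the regions, came from the labels. The mean residual correlation of the paired libraries was 0.0606 in ret/wt and 0.0936 in ret/ret animals, and across genotypes, where equal numbers are different animals, -0.00053 in cortex and -0.026 in thalamus. Alternatives were DESeq2 1.42.0, limma-voom (limma 3.58.1), other scalings, no filter, the replicate block, a fit of all libraries, and leaving out single libraries or the animals ret/wt 3 and ret/ret 2. The offset for GC and length (splines with 4 degrees of freedom each), alone and with the block, and leaving out both thalamus libraries that stand apart were added after seeing the data.

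The 10 genes and all lists were chosen with earlier results of these data known. All 10 are named in each comparison. Of the lists, the genes passing, at most 10 with the smallest p, could be named, and not all of these are given. Of the list genes, Apol8, Apol9b, Srebf2 and Myh11 were not analysed here. Values of 1 further gene are not reported here. Floors and intervals cover counting error and the spread between these animals only.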

Additional observations from a re-analysis of the deposited data

Results flagged for a closer look

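In 4 of the 40 combinations of gene and group, 1 library lay far from the other 3 by the gap to its nearest neighbour, where chance gives about 1 in 20. For Apoe, replicate 1 of ret/ret thalamus held 2631 CPM, against 994 to 1232 CPM in the other 3. Apod was at 252 CPM in ret/ret cortex replicate 2, the library with the most cerebellum markers, against 115 to 134 CPM. Clu was at 824 CPM in ret/wt cortex replicate 2, against 728 to 738 CPM, a distance that is small beside the spread of Clu in the other groups. Abca1 was at 49.6 CPM in ret/wt cortex replicate 4, the library with choroid plexus markers, against 42.1 to 43.1 CPM. Whether these markers bear on the values was not tested.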

How the results depend on the processing

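Of the 10 genes, 0 passed between genotypes, in either region, and 0 in the interaction under every alternative run. Apod passed between regions in ret/ret animals under every alternative, and in ret/wt animals under all but those that left out cortex replicate 1, cortex replicate 2 or thalamus replicate 4, so that 0 to 2 of the 10 passed there when single libraries were left out. A further gene, Cyp46a1, passed in ret/wt animals (2 of 10) in DESeq2, with the GC and length offset, without ret/wt cortex replicate 3, without ret/wt thalamus replicate 3 and without the animals ret/wt 3 and ret/ret 2, and in ret/ret animals (2 of 10) without those animals. No gene of the 10 other than Apod and Cyp46a1 passed under any alternative run. The fewest counts behind any value of the 10 genes were 79, for Plin2, above the floor of 3. The cause of each shift given here was not tested.

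Genes passing over the whole table between genotypes in thalamus, 0 as reported, were 37 in DESeq2 and 3 in a single fit of all 16 libraries. In cortex, against 3 as reported, they were 38 in DESeq2, 7 in the single fit, 0 with the replicate block, 0 with the block and the offset together, 1 without the 2 animals, and 0 to 2 when single libraries were left out. Between regions they were 2591 in DESeq2 and 2564 without the 2 animals in ret/ret, against 1398, with 627 (without ret/ret cortex replicate 3) to 2007 when single libraries were left out, and 1178 (without ret/wt cortex replicate 1) to 1797 in ret/wt, against 1813. In the interaction DESeq2 gave 4, against 0.

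Of 40 levels per kilobase, 24 moved by more than 1 SD when the longest transcript gave the length.

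Each value that changed sign belongs to a gene and comparison that did not pass as reported. The same replicate number marks the same animal in both regions, so the replicate block pairs the regions, whereas across genotypes it joins different animals. With the replicate block, the log2 fold changes of opposite sign were Abca1 -0.00073, Abcg1 -0.0060, Lrp1 0.017 and Vldlr -0.016 for genotype in cortex, Abca1 -0.16 for region in ret/wt, and Abca1 0.20 and Cyp46a1 -0.054 for the interaction, and the block changed no call among the 10 genes. With an offset for GC and length they were Clu -0.0083 and Lrp1 0.24 for genotype in cortex, Clu -0.22 for region in ret/ret, Clu -0.044, Abcg1 0.12, Soat1 0.013 and Plin2 -0.14 for region in ret/wt, and Abca1 0.075 for the interaction. With that offset and the replicate block together they were Clu -0.025 and Lrp1 0.26 for genotype in cortex, Clu -0.22 for region in ret/ret, Clu -0.077, Abcg1 0.12 and Plin2 -0.066 for region in ret/wt, and Apoe -0.0024, Abca1 0.17 and Cyp46a1 -0.16 for the interaction. Scaling by library size alone gave Abca1 -0.013 for genotype in thalamus, Lrp1 0.0026 for genotype in cortex and Abcg1 0.073 for region in ret/wt. In limma-voom they were Lrp1 0.0094 and Vldlr -0.016 for genotype in cortex, Abca1 -0.17 for region in ret/wt and Abca1 0.20 for the interaction. The single fit of all 16 libraries gave Abca1 -0.019 for genotype in thalamus and -0.0049 in cortex. Without both thalamus libraries that stand apart in GC and length they were Abca1 -0.27 and Soat1 -0.24 for genotype in thalamus and Apoe -0.15, Apod 0.22 and Soat1 -0.16 for the interaction. Without the animals ret/wt 3 and ret/ret 2 they were Clu 0.076 and Abca1 -0.010 for genotype in thalamus, and Apoe -0.16, Abca1 -0.071, Abcg1 -0.14 and Vldlr -0.12 for genotype in cortex. The same setting gave Abcg1 0.018 for region in ret/wt and Abca1 0.049, Lrp1 0.025 and Cyp46a1 -0.26 for the interaction.

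When single libraries were left out, these log2 fold changes crossed 0. For genotype in thalamus they ran from -0.0020 to 0.59 for Apoe, -0.25 to 0.10 for Clu, -0.26 to 0.40 for Abca1, -0.42 to 0.11 for Lrp1, -0.073 to 0.63 for Soat1 and -0.64 to 0.12 for Cyp46a1. For genotype in cortex the ranges were -0.057 to 0.43 for Apoe, -0.15 to 0.16 for Clu, -0.067 to 0.085 for Abca1, -0.16 to 0.11 for Abcg1, -0.23 to 0.12 for Lrp1, -0.21 to 0.16 for Vldlr, -0.31 to 0.031 for Soat1 and -0.51 to 0.020 for Cyp46a1. For region in ret/ret they were -0.19 to 0.24 for Clu, -0.076 to 0.12 for Abca1, -0.26 to 0.0074 for Abcg1 and -0.15 to 0.47 for Soat1. For region in ret/wt they were -0.34 to 0.32 for Abca1, -0.13 to 0.064 for Abcg1, -0.46 to 0.017 for Soat1 and -0.094 to 0.36 for Plin2. For the interaction they were -0.21 to 0.47 for Apoe, -0.60 to 0.31 for Apod, -0.29 to 0.11 for Clu, -0.31 to 0.38 for Abca1, -0.26 to 0.033 for Abcg1, -0.38 to 0.098 for Lrp1, -0.38 to 0.039 for Vldlr and -0.43 to 0.39 for Cyp46a1.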
